A study of Homo sapiens with 49 samples.

Results

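LSD1 (KDM1A) is a histone demethylase that was mapped by ChIP-seq in T-47D, a line from a ductal carcinoma of the breast that carries the estrogen receptor, after 17β-estradiol (E2) or its vehicle DMSO. The data described here are the peaks of the E2 library that no peak of the DMSO library overlapped by 1 bp, on chromosomes 1 to 22 and X and wider than 100 bp. There were 432 such E2-only peaks among the 442 peaks of the E2 list, which is 97.7% of it, and the DMSO list held 42 peaks. All lists of the series together held 528044 peaks. The width limit removed no peak of the E2 list, whose narrowest peak spanned 169 bp.

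T-47D cells and Ishikawa cells, an endometrial adenocarcinoma line, were kept for 5 days in hormone-depleted media and then given 10 nM E2 or DMSO, which was left on the cells for 1 h when a protein was to be mapped and for 8 h when it was a histone mark. SIN3A, a corepressor scaffold, was instead mapped in charcoal stripped and in full media, with no E2 or DMSO in the labels. LSD1 was precipitated from each line with a single antibody, and each treatment of each line was a single LSD1 library, so no test could be made between LSD1 lists. RNA polymerase II (RNAPII, Pol2 in the labels) in T-47D was the only target with replicates, 2 libraries per treatment. Nothing in the labels says that those came from separate cultures, so the p-values given for them measure the spread between libraries, which may be technical. The T-47D label was checked by H3K4me3, a mark of active promoters, at the start sites of marker genes in the DMSO library: 9 of 10 breast luminal genes had it, TFF1 being the exception, against 2 of 7 endometrial or Mullerian genes, which were WT1 and PAX2, and 1 of 7 genes of other cells, COL1A1. In Ishikawa, 7 of the same 10 luminal genes had it and 5 of the same 7 endometrial or Mullerian genes. Of the luminal genes, only GATA3 and SPDEF had it in T-47D and not in Ishikawa.

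LSD1 removes methyl groups from lysine 4 of histone H3 when the lysine carries 1 or 2 of them, and it acts inside corepressor complexes with CoREST and histone deacetylases as well as with nuclear receptors. When estradiol binds the estrogen receptor, the receptor binds DNA as a dimer at an inverted repeat, the estrogen response element. In luminal breast cells most such sites are enhancers away from promoters, where the forkhead protein FOXA1 and the zinc finger protein GATA3 are also found. Enhancers in use carry RNAPII, which transcribes short RNAs from them.

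The element was searched as GGTCANNNTGACC, which reads the same on both strands, and mismatches were counted in its 10 fixed bases. The 8 E2-only peaks that held it without a mismatch within 100 bp of the summit are shown first below, and after them 4 with 1 mismatch, chosen because they lay at a known estrogen-induced gene (RARA, GREB1) or at an RNAPII region seen under E2 alone (KCTD3, MAPT). A peak at PVT1 and the GATA4 peak met this too and are not printed. Each line gives the plus strand of GRCh37 (hg19), 101 bp centred on the LSD1 summit, with the element in capitals. In the MIDEAS, PRKCE, RARA and GREB1 peaks the element lay 48 to 57 bp from the summit, and the stretch was moved so as to keep it. Names are those of the gene the summit lay in, or else of the nearest protein-coding start.
MIDEAS, chr14:74223424-74223524: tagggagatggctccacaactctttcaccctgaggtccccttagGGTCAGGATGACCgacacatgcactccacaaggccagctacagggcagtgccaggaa
MED13L, chr12:116828344-116828444: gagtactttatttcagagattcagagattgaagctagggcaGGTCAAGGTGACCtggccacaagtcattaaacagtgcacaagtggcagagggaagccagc
PRKCE, chr2:45979838-45979938: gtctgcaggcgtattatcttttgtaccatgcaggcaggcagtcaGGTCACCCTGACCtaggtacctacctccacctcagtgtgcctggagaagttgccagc
KIF4B, chr5:154448304-154448404: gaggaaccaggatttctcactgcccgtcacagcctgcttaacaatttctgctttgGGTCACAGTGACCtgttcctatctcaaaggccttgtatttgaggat
ENSG00000227098, chr2:177710601-177710701: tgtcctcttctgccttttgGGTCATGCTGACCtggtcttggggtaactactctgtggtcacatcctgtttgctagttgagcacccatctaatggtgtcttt
MAPKAPK3, chr3:50642674-50642774: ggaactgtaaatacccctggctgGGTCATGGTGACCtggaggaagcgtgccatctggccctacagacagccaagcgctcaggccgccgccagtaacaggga
CUEDC1, chr17:55977327-55977427: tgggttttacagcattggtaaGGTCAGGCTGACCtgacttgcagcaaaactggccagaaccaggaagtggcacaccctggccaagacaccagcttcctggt
TPRG1, chr3:188816970-188817070: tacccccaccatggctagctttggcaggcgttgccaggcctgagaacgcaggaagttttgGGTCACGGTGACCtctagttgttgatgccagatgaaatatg
KCTD3, chr1:215598635-215598735: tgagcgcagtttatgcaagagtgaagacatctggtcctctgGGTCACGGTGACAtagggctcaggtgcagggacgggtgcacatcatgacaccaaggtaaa
RARA, chr17:38478700-38478800: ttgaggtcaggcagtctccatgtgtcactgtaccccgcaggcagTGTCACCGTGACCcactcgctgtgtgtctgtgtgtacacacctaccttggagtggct
GREB1, chr2:11638811-11638911: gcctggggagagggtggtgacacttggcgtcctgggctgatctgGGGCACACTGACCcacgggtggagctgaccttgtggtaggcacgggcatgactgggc
MAPT, chr17:43978576-43978676: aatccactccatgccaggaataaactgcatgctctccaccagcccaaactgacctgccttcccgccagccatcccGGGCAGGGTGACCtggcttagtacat
Against the element, counted from 1 at its first base, the 4 sites with a mismatch carried C13A at KCTD3, G1T at RARA, T3G at GREB1 and T3G at MAPT. The MIDEAS, PRKCE, CUEDC1, TPRG1, RARA, GREB1 and MAPT summits were intronic, the ENSG00000227098 summit lay in a non-coding exon, and the other 4 were intergenic. MIDEAS is a subunit of a histone deacetylase complex, PRKCE a protein kinase C, RARA a retinoic acid receptor and MAPT the gene of tau. The nearest coding start was 112896 bp away for MED13L, a subunit of the Mediator kinase module, 55039 bp for KIF4B, 6227 bp for MAPKAPK3 and 141962 bp for KCTD3.

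The contrast with the DMSO library touches every count of E2-only peaks, since the peak values point to unequal depth of the libraries, whose read counts were not given. Fold enrichment and p-value of a peak together give the number of tags piled up at its summit and the local background, and this worked for all 442 and all 42 peaks. E2-only peaks had a median of 38 tags at the summit (18 to 150) over a median background of 4.28 tags, and a median fold enrichment of 7.37 (2.63 to 15.2). The lowest background of any peak was 1.08 tags in the E2 library and 0.0639 in the DMSO library, which allows at most about 17.2 and 3.38 Mtags (sequenced tags, with the mega prefix) when the genome that reads can map to is taken as 2700 Mb and a fragment as the narrowest peak of the list. At the PGK1 promoter, a glycolytic housekeeping gene, fold enrichment was alike, 17.5 in the E2 library and 18.8 in the DMSO library, but rested on 283 tags in the first and 30 in the second. Divided by that ratio of 9.43, the summits of the E2-only peaks would hold a median of 4.03 tags, and 7 of the 432 would reach the 9 tags of the lowest DMSO peak. Divided by the ratio of the backgrounds there, 23.3, none would. At these tag counts an absence of LSD1 under DMSO was not detectable for most E2-only peaks. The narrowest peak, taken as the fragment, was 169 bp in the E2 list and 51 bp in the DMSO list. Pileup rises with fragment length, so the tag ratios may not stem from depth alone. The part of fragment length was not tested. Treatment, library depth and fragment length cannot be told apart for the E2-only peaks as a set.

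**Figure D1:**
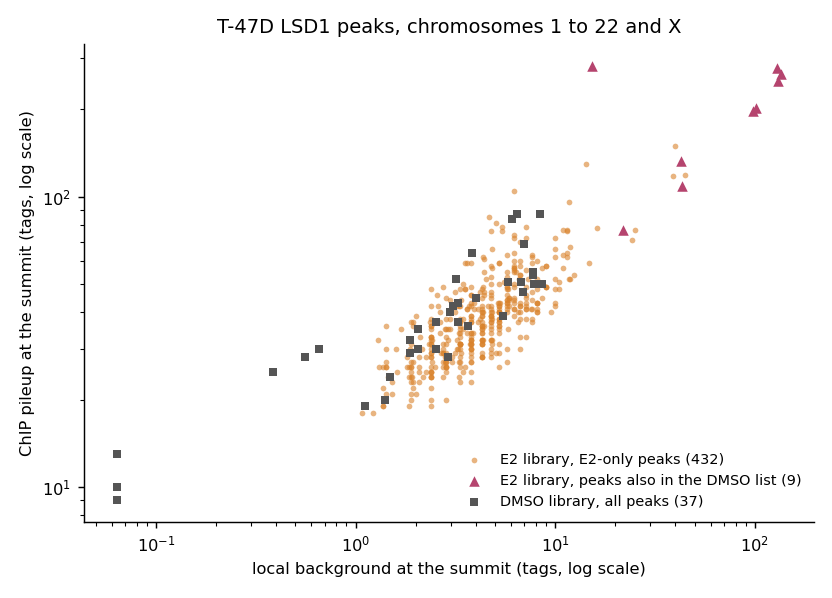
ChIP pileup at the summit (vertical axis, tags, log scale) against local background (horizontal axis, tags, log scale) for the 432 E2-only peaks, the 9 peaks of the E2 list also in the DMSO list and the 37 peaks of the DMSO library, all on chromosomes 1 to 22 and X. DMSO peaks start at a background of 0.0639 tags and E2 peaks at 1.08, and the PGK1 promoter stands apart in the E2 library at 283 tags over 15.2.

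In the DMSO list, 28 of the 42 peaks spanned no more than 100 bp and 5 lay on the mitochondrial genome. The 12 wider ones on chromosomes 1 to 22 and X were the PGK1 promoter, an intron of PMF1 (fold enrichment 10.3), the promoter of MIR663AHG (9.44), a pair of neighbouring peaks in an intron of LINC00486 (10.5 and 10.0), and 7 intergenic peaks. Of these 7, a pair lay 645208 and 645788 bp from the start of FAM72B (12.03 and 9.37), 1 lay 1971809 bp from UQCRFS1 (7.67) and 4 lay 1384046 to 1385791 bp from PRIM2 (5.77, 6.07, 6.29 and 6.41). Regions of this kind were not particular to LSD1: 27 of the 37 DMSO peaks on these chromosomes overlapped at least 1 of 3 short lists of other targets (T-47D H3K27me3 under E2, Ishikawa c-MYC under DMSO, T-47D SIN3A in stripped media), against 6 of the 432 E2-only peaks. Apart from PGK1, the peaks of these chromosomes found under both treatments had fold enrichments of only 1.90 to 3.41 in the E2 library.

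The element was more frequent at E2-only summits than in the genome at large. A perfect element lay within 100 bp of the summit in 8 of 432 peaks (1.85%, exact 95% interval 0.803 to 3.62), and in 0.0145% of 14107527 windows of 201 bp tiled over the same chromosomes. With at most 1 mismatch the counts were 35 peaks (8.10%, 5.71 to 11.1) against 0.409% of windows. With at most 2 mismatches, the setting used from here on, they were 92 peaks (21.3%, 17.5 to 25.5) against 6.21% of windows, and with 3 the match was common everywhere (57.6% against 41.8%). Windows at all 219838 annotated start sites held the element at 2 mismatches in 7.62%. Intervals cover counting error only.

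The same scan in other peak lists gave lower shares. Of the 11872 E2-only LSD1 peaks of Ishikawa, 10.2% (9.70 to 10.8) held an element with at most 2 mismatches and 1.46% with at most 1. Of the T-47D RNAPII regions of E2 replicate 2, 10315 lay outside H3K4me3 and outside the E2-only LSD1 peaks. Of these, 11.5% (10.9 to 12.1) held an element at 2 mismatches and 2.40% at 1. RNAPII regions outside H3K4me3 are called distal below, though 11.8% of these 10315 lay within 250 bp of a start site. T-47D regions of RARA under E2 (86.7% within 250 bp of a start site) had it in 7.47%. Those of c-JUN under DMSO (44.1% within 250 bp of a start site) had it in 10.6%. The intervals of these lists did not overlap that of the E2-only T-47D LSD1 peaks at either setting.

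Elements gathered at the summit. In the 50 bp bins directly to the left and right of it there were 8.33 and 7.18 elements per 100 E2-only peaks, in the next bins 4.86 and 3.94, and in all bins beyond 100 bp between 1.16 and 2.78. Around Ishikawa E2-only summits the same profile ran from 2.01 to 3.09 per 100 peaks. The plot of elements by distance shows both profiles.

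**Figure D2:**
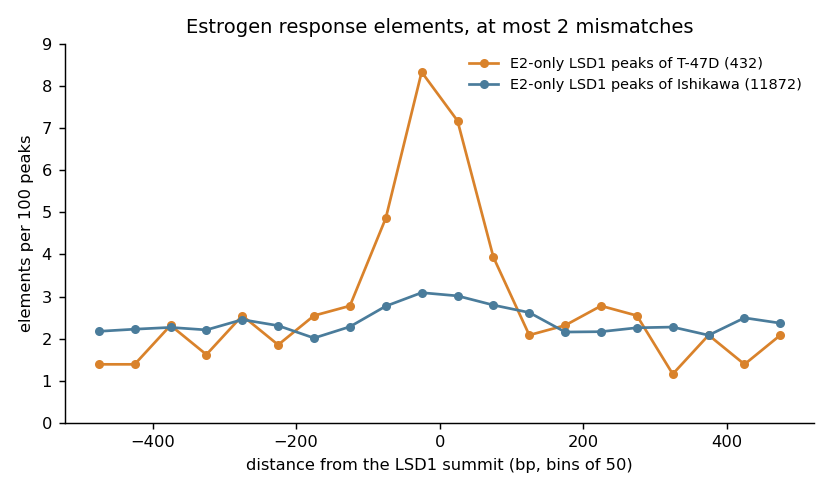
Estrogen response elements with at most 2 mismatches, per 100 peaks (vertical axis), by distance from the LSD1 summit in bins of 50 bp (horizontal axis), for the 432 E2-only peaks of T-47D and the 11872 of Ishikawa. The T-47D profile reaches 8.33 beside the summit and falls to between 1.16 and 2.78 beyond 100 bp, whereas the Ishikawa profile stays between 2.01 and 3.09.

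Short sequences bound by other factors were counted in the same windows, on both strands. No mismatch was allowed, except for the REST element, where up to 3 of its 15 fixed bases could differ. The forkhead word TGTTTAC was found in 56 E2-only peaks (12.96%, 9.94 to 16.5). It was in 3.13% of genome windows, 5.64% of the 10315 distal RNAPII regions of E2 replicate 2 and 1.15% of Ishikawa E2-only LSD1 peaks. AGATAA, bound by GATA factors, was found in 95 (21.99%, 18.2 to 26.2), against 14.8%, 10.5% and 2.16%. TGANTCA, bound by AP-1 dimers, was found in 50 (11.6%, 8.71 to 14.97), against 6.30%, 8.72% and 6.54%. A single arm of the element, GGTCA, was in 45.1% of peaks and 26.2% of windows. The promoter word CCGCCC, the GC box, went the other way between the lines: 5.09% of E2-only T-47D peaks held it, against 41.2% of Ishikawa E2-only peaks and 2.91% of windows. The E-box CACGTG was in 2.08% of peaks and 1.84% of windows, and a match to the REST element in 1.62% and 0.718%. The forkhead word was in 9 of the 92 peaks with the element (9.78%) and in 47 of the 340 without it (13.8%). None of the 35 peaks with at most 1 mismatch held the word. These differences were not tested. A match is a description of letters and was not taken as a bound site.

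E2-only LSD1 peaks lay mostly away from promoters. The summit was intronic in 227 peaks (52.5%), intergenic in 154 (35.6%) and within 250 bp of a start site in 27 (6.25%, 4.16 to 8.96). The other 24 lay in exons, 4 of them in coding sequence, 4 in UTRs and 16 in exons of non-coding transcripts or otherwise unassigned. The median distance to the nearest annotated start was 9352 bp and to the nearest protein-coding start 34803 bp, and 382 peaks (88.4%) lay over 1000 bp from any start. In Ishikawa 43.5% (42.6 to 44.4) of the E2-only LSD1 peaks were within 250 bp of a start, and 37.9% lay over 1000 bp from one. Only 33 of the T-47D peaks (7.64%, 5.32 to 10.6) overlapped an H3K4me3 region of DMSO-treated T-47D cells, whereas 50.7% of Ishikawa E2-only peaks overlapped one.

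**Figure D3:**
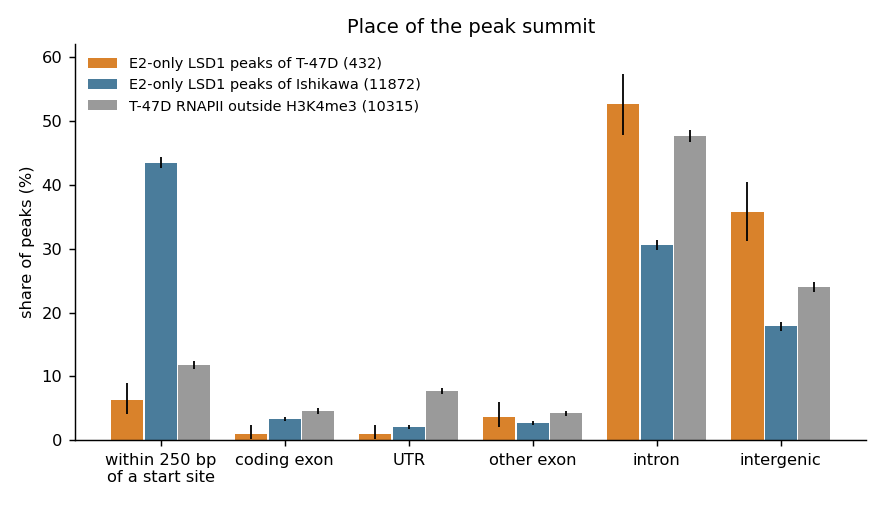
Share of peaks (vertical axis, %) by place of the summit (horizontal axis), with exact 95% intervals for counting error. Shown are E2-only LSD1 peaks of T-47D and of Ishikawa. The third set is T-47D RNAPII regions of E2 replicate 2 outside H3K4me3 and outside the E2-only LSD1 peaks. The T-47D LSD1 peaks are at start sites in 6.25% and in introns in 52.5%, and those of Ishikawa in 43.5% and 30.6%.

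H3K4me1, the usual mark of enhancers, overlapped only 8 of the E2-only peaks (1.85%) under DMSO and 1 under E2. Those T-47D lists were short, with 6408 and 1960 regions over 0.0577% and 0.0190% of the genome, so a missing overlap does not show that the mark was absent.

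The strongest E2-only peaks were distal, and each of the 12 with the highest fold enrichment overlapped RNAPII in all 4 libraries. The first lay inside ENSG00000284686 at chr1:56882084-56882418 (fold enrichment 15.2, 36 tags), in an exon of a non-coding transcript or otherwise unassigned. The second lay in an intron of LINC01208 at chr3:176573679-176574236 (15.2, 85 tags). The third lay in an intron of MARCHF8, a ubiquitin ligase, at chr10:45966069-45966363 (14.8, 105 tags). Introns of AFF3 (14.5), RAB36 (14.4), ENSG00000254113 (13.5), AOPEP (13.4) and ARHGAP15 (13.4) followed. ITPR1, the calcium channel of the endoplasmic reticulum, held a peak over a coding exon (13.2), and the remaining 3 were intergenic, 198599 bp from UACA (13.4), 181191 bp from ARHGAP20 (13.3) and 244305 bp from DNAJB9 (13.2). None of these 12 held an element with at most 2 mismatches. The forkhead word was in 4 of them, at ENSG00000284686, LINC01208, MARCHF8 and RAB36. Over the whole list, the element was in 23.1% of the 108 strongest peaks and in 17.6% of the 108 weakest, and the median fold enrichment was 7.64 with it and 7.31 without it. RNAPII in all 4 libraries went the other way from the first 12, at 63.0% of the 108 strongest peaks and 72.2% of the 108 weakest.

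RNAPII was found at most E2-only LSD1 peaks, and in the lists as deposited at more of them in each E2 library than in either DMSO library. Under DMSO the 2 RNAPII libraries overlapped 363 and 356 of the 432 peaks, and under E2 397 and 388, so that the groups did not overlap. The means were 359.5 ± 4.95 and 392.5 ± 6.36 (SD, n = 2 each), a difference of 33 peaks. An exact two-sided permutation test over the 6 assignments gave p = 0.333, the smallest it can give. The E2 lists were the longer of each replicate number, 46282 and 23433 regions against 39371 and 21291. With each list shortened to its 21291 regions of lowest p-value, 283 and 356 peaks were overlapped under DMSO and 342 and 383 under E2, so that the groups then overlapped (exact permutation p = 0.667). All 4 libraries overlapped 298 peaks (69.0%), both E2 libraries 363 (84.0%, 80.2 to 87.4), and no library 9. For comparison, RNAPII regions covered 0.348% to 0.922% of the genome per library, and 31.6% to 59.9% of the Ishikawa E2-only LSD1 peaks overlapped them.

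RNAPII height at the peaks was compared by fold enrichment in the libraries, where those of replicate 1 and replicate 2 were not on a common scale: over all regions in all 4 lists the medians were 49.4 and 12.3 under DMSO and 25.5 and 14.8 under E2. Among the 298 E2-only peaks in all 4 lists, the fold enrichment of RNAPII was higher in both E2 libraries than in both DMSO libraries at 57 (19.1%, 14.8 to 24.1) and lower in both at 22 (7.38%). Over all 12294 RNAPII regions in all 4 lists, 3.12% were higher and 1.96% lower, DMSO replicate 1 being the library with the highest median there. Among the 2487 of these outside H3K4me3 and without an E2-only LSD1 peak, 10.9% (9.66 to 12.1) were higher and 3.78% lower. Compared within each replicate number, which was chosen after seeing the data, RNAPII was higher under E2 in both numbers at 89 of the 298 peaks (29.9%, 24.7 to 35.4), at 7.31% of all regions and at 23.7% (22.1 to 25.4) of the distal ones, and lower at 23.2%, 19.3% and 21.6%. The intervals of the E2-only peaks and the distal regions then overlapped. The median log2 ratio of E2 over DMSO at the 298 peaks was 0.16 in replicate 1 and -0.03 in replicate 2, and at the distal regions 0.08 and -0.02.

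Among the 4 sets compared, higher RNAPII was most frequent at E2-only LSD1 peaks with the element. RNAPII was higher in both E2 libraries at 24 of 53 E2-only peaks with the element (45.3%, 31.6 to 59.6) and at 33 of 245 without it (13.5%, 9.46 to 18.4). At distal RNAPII regions with no E2-only LSD1 peak, the shares with and without the element had overlapping intervals: 32 of 239 with it (13.4%, 9.34 to 18.4) and 238 of 2248 without it (10.6%, 9.35 to 11.9). With at most 1 mismatch, 11 of 22 E2-only peaks were higher and none was lower. That share was not computed for the other distal regions. Matches were closer at the E2-only peaks, where 35 of the 92 elements had at most 1 mismatch. At RNAPII regions of E2 replicate 2 outside H3K4me3 and outside these peaks it was 248 of 1182. The part of match quality in the difference was not tested. Within replicate numbers the 4 shares were 62.3% (47.9 to 75.2) and 22.9% (17.8 to 28.6) at E2-only peaks with and without the element, and 30.1% (24.4 to 36.4) and 23.04% (21.3 to 24.8) at the other distal regions.

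**Figure D4:**
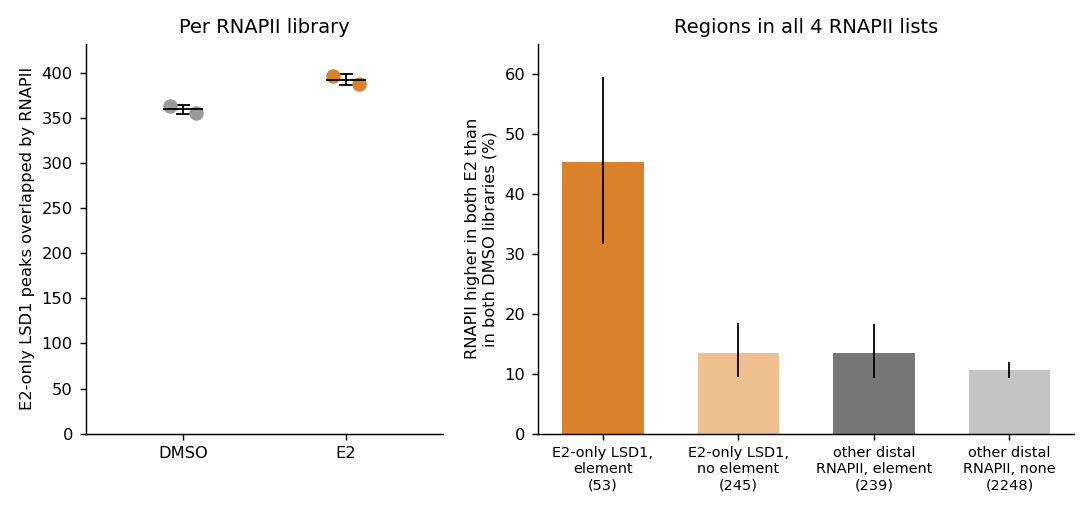
Left, number of the 432 E2-only LSD1 peaks (vertical axis) overlapped by each RNAPII library under DMSO and E2 (points), with mean and SD of 2 libraries: 363 and 356 against 397 and 388. Right, share of regions in all 4 RNAPII lists (vertical axis, %) with higher RNAPII in both E2 than in both DMSO libraries, for E2-only LSD1 peaks and for RNAPII regions outside H3K4me3 without such a peak (other distal), with or without the element, with exact 95% intervals for counting error: 45.3%, 13.5%, 13.4% and 10.6%.

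At 12 E2-only peaks (2.78%) RNAPII was listed in both E2 libraries and in neither DMSO library, a pattern shown by 1.71% of all 54590 RNAPII regions and by 2.33% of the 36962 outside H3K4me3 and without an E2-only LSD1 peak, so the share at the E2-only peaks was near that of other distal regions. The reverse, RNAPII in both DMSO libraries and in neither E2 library, was rare everywhere, at 0 of the 432 and at 0.211% of all RNAPII regions. The element was in 8 of the 12, and 4 had it with at most 1 mismatch. They lay in introns of KDM4B, a histone H3 lysine 9 demethylase (LSD1 fold enrichment 10.4), ERBB4, a receptor tyrosine kinase (9.72), NR6A1, an orphan nuclear receptor (9.61), CXCL13 (9.14), MAPT (7.20), PVT1 (7.10) and GATA4 (6.45), and in a non-coding exon of ENSG00000227098 (7.28). The intergenic ones lay 51230 bp from KLF4 (8.34), 141962 bp from KCTD3 (8.17), 204016 bp from BRINP1 (6.06) and 72563 bp from TBL1XR1 (5.24). RNAPII fold enrichment at the 12 ran from 5.43 to 33.8 in replicate 1 and from 5.79 to 22.6 in replicate 2 under E2, where the medians of the whole lists were 11.7 and 10.9. It was high in both libraries at ENSG00000227098 (33.8 and 20.1), KCTD3 (32.7 and 19.8) and GATA4 (27.5 and 22.6), and low in 1 or both at CXCL13 (5.43 and 8.63), MAPT (15.6 and 5.79), KLF4 (16.8 and 7.11) and NR6A1 (13.3 and 8.43).

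Known estrogen-induced genes were among the neighbours of the peaks. Of 50 such genes, 7 had an E2-only peak inside or nearest (14.0%, 5.82 to 26.7), where 1.87% of the 20090 protein-coding genes did: GREB1, RARA, XBP1, CXCL12, NRIP1, TSKU and MYC. The gene list was chosen with earlier results of these data known, so the share is a description and not a test. GREB1, an early target in breast cancer cells, had an intronic peak at chr2:11638708-11638920, 16337 bp from the nearest start (LSD1 fold enrichment 7.76, 40 tags). RNAPII there stood at 15.4 and 10.0 under DMSO and at 41.3 and 39.7 under E2. The RARA peak lay in an intron of the retinoic acid receptor gene at chr17:38478534-38478827, 541 bp from the nearest annotated start. It had LSD1 at 7.80 and RNAPII at 15.9 and 6.14 under DMSO and 22.7 and 28.6 under E2.

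The other loci of that list behaved unevenly. XBP1, a transcription factor of the unfolded protein response, had peaks 13316 and 22558 bp away (8.14 and 6.82). At the nearer one, RNAPII was 12.4 and 14.0 under DMSO and 31.1 and 23.6 under E2, and at the farther one 11.2 and 12.1 against 25.3 and 20.6. The peak 211283 bp from CXCL12, a chemokine (8.22), had RNAPII of 12.1 and 8.29 under DMSO and 36.8 and 26.0 under E2. At GREB1, RARA, XBP1 and CXCL12 every E2 library was thus above every DMSO library. NRIP1, a nuclear receptor corepressor, had a peak 144498 bp away (7.99) with RNAPII in replicate 1 under E2 alone (21.97). TSKU had an intronic peak (5.39) where the RNAPII ranges overlapped, 26.4 and 13.3 against 19.1 and 13.4. The 3 peaks assigned to MYC lay 131714, 403034 and 414120 bp from it, in introns of PVT1 (7.10, 12.1 and 6.71).

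Luminal transcription factor genes had the most hits of the lists. Of 14, 10 had an E2-only peak inside or nearest (71.4%, 41.9 to 91.6), by 17 peaks in all, against the 1.87% of all protein-coding genes. This gene list too was chosen with earlier results of these data known, so the share is a description and not a test. Such genes often have wide intergenic surroundings, which raises the number of peaks nearest to them, and the part of this was not tested. ELF3, an epithelial ETS factor, had peaks 5144 and 32667 bp away (5.09 and 4.27), GATA3 peaks 70280, 980175 and 1130182 bp away (6.70, 4.17 and 4.62), and TLE3, a corepressor of the Groucho family, an intronic peak (8.86) and another 226249 bp away (6.04). Paired peaks lay nearest to TRPS1, 178329 and 28975 bp away (10.3 and 5.78), and to KLF4, 51230 and 640672 bp away (8.34 and 5.45). Single peaks lay nearest to TFAP2C, 105247 bp away (8.19), GRHL2, 55221 bp (7.70), ELF5, 45574 bp (6.53), and TFAP2A, 241234 bp (5.62). The peak nearest to TFAP2A was in an intron of OFCC1. Of the 17 peaks, 14 had RNAPII in all 4 libraries, and among those 14 RNAPII was above both DMSO libraries in both E2 libraries at both XBP1 peaks and at the GATA3 peak at 980175 bp. RNAPII was listed only under E2 at the KLF4 peaks, in both libraries at the stronger and in replicate 2 alone at the weaker (6.34), and at the GATA3 peak at 70280 bp it was missing from 1 DMSO library.

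The intervals of the other 3 lists all held the 1.87% of all protein-coding genes. Among 23 genes of LSD1 complexes (4.35%, 0.110 to 21.9), GSE1, a protein found with LSD1 and CoREST, had E2-only peaks, 7 of them, the most of any gene. They spread over its introns from chr16:85355587 to chr16:85604377, with LSD1 fold enrichments of 2.85 to 8.58 over local backgrounds of 6.66 to 24.3 tags, which is above the median of 4.28 for E2-only peaks. The part of that background in the number of peaks was not tested. All 7 overlapped c-JUN under both treatments, and 5 overlapped Ishikawa LSD1 under E2, with fold enrichments of 43.3, 41.1, 34.7, 14.0 and 10.2 there. Steroid receptor and cofactor genes had 2 of 14 (14.3%, 1.78 to 42.8), NR3C1, the glucocorticoid receptor (6.10, 159634 bp away), and NRIP1. None of 9 AP-1 subunit genes had a peak (upper limit 33.6%). Several peaks near a single gene were otherwise found at EDN1 (6), EHF, TPRG1 and TRPC6 (4 each), which were chosen for naming after their values were seen, among 16 genes with at least 3 peaks. In 22 clusters with gaps of at most 10 kb lay 47 of the peaks, the largest with 3 each at TRPC6, GSE1 and BASP1. By chromosome, density ran from 3.22 peaks per 100 Mb on X to 27.4 on 11, with 27.1 on 17 and 26.97 on 20.

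c-JUN and RARA overlapped fewer of these peaks under E2 than under DMSO, unlike RNAPII. c-JUN, the AP-1 subunit, overlapped 237 of the 432 under DMSO (54.9%, 50.03 to 59.6) and 112 under E2 (25.9%, 21.9 to 30.3), each from a single library. Both lists overlapped 85 peaks, DMSO alone 152, E2 alone 27 and neither 168. The c-JUN lists themselves were of similar size, 28703 regions under DMSO and 24885 under E2, covering 0.549% and 0.578% of the genome. At the 85 peaks in both, the median c-JUN fold enrichment was 26.1 under DMSO and 15.2 under E2, and it was higher under E2 at 27. Over the whole DMSO c-JUN list, the AP-1 word TGANTCA was at 4.98% of summits, against 6.30% of genome windows. Of its summits 44.1% lay within 250 bp of a start site. Whether the overlapped peaks are sites bound by AP-1 was not tested.

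The share of c-JUN regions also listed under E2 was smaller at these peaks than elsewhere. Of the 236 DMSO c-JUN regions that overlapped an E2-only LSD1 peak, 87 were also in the E2 list (36.9%, 30.7 to 43.4), against 71.7% of all 28702 on these chromosomes. Outside H3K4me3 the shares were 27.2% (20.7 to 34.4) of 173 regions with an E2-only LSD1 peak and 50.1% (49.2 to 50.9) of 12450 without. The former were the stronger regions under DMSO, with a median fold enrichment of 16.1 against 9.13. Ishikawa E2-only LSD1 peaks overlapped T-47D c-JUN in 52.8% under DMSO and 56.2% under E2. Of the 35 peaks with the element at 1 mismatch or fewer, 25 overlapped c-JUN under DMSO and 18 under E2. The GREB1 peak, among these, had c-JUN at 39.1 under DMSO and 42.0 under E2, whereas AOPEP had 56.3 under DMSO and no region under E2.

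RARA, a retinoid receptor that binds enhancers together with the estrogen receptor in luminal cells, overlapped 76 of the E2-only peaks under DMSO (17.6%, 14.1 to 21.5) and 43 under E2 (9.95%, 7.30 to 13.2). Its lists were short, 844 and 755 regions, so that the E2-only LSD1 peaks met 8.95% of the DMSO list. Of those 75 RARA regions 27 (interval 25.2% to 47.9%) were also in the E2 list, against 70.2% of all. Outside H3K4me3 it was 36.7% of 60 with an E2-only LSD1 peak and 65.7% (58.2 to 72.7) of 175 without. At the 27 LSD1 peaks in both RARA lists, RARA fold enrichment was higher under E2 at 4.

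H3K27me3, the Polycomb mark, overlapped 110 E2-only peaks (25.5%, 21.4 to 29.8) under DMSO and 0 of 432 under E2 (upper limit 0.850%), where the list held 107 regions against 6305. That E2 list is too short to read a change from. Of the 110, 31 held the element. The DMSO list overlapped 61 of the 85 E2-only peaks with c-JUN under both treatments (71.8%) and 21 of the 33 at H3K4me3 (63.6%). It overlapped 2 of the 168 with no c-JUN (1.19%). Whether the 110 are Polycomb sites was not tested. The overlaps with TAF1 (3 peaks under DMSO, 10 under E2), MAX (3 and 5), c-MYC (7 and 9) and SIN3A (5 in stripped and 8 in full media) were few in every list.

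**Figure D5:**
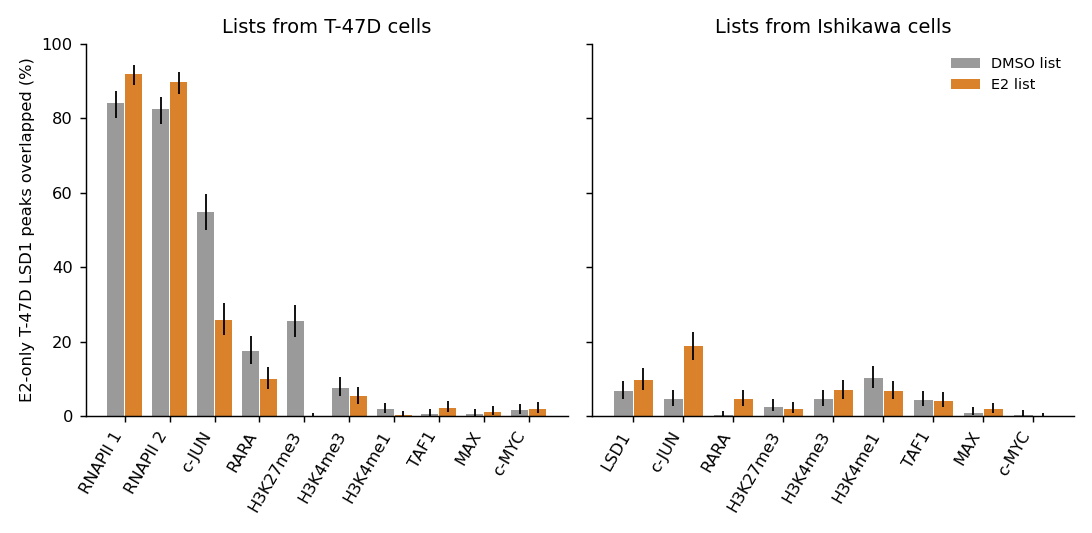
Share of the 432 E2-only T-47D LSD1 peaks (vertical axis, %) overlapped by the DMSO and E2 lists of each target (horizontal axis) from T-47D and from Ishikawa cells, with exact 95% intervals for counting error. RNAPII replicates stand at 84.0% and 82.4% under DMSO and at 91.9% and 89.8% under E2, c-JUN of T-47D at 54.9% and 25.9%, and c-JUN of Ishikawa at 4.63% and 18.8%.

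A minority of E2-only peaks of T-47D was listed for LSD1 in Ishikawa. Under E2 42 overlapped an Ishikawa LSD1 region (9.72%, 7.10 to 12.9), and under DMSO 29 did (6.71%). The Ishikawa E2 list held 18384 regions over 0.277% of the genome. Overlap was less frequent among T-47D peaks whose fold enrichment reached 8 (2.99%) and among those with a local background at or below the median (1.85%). Of the Ishikawa E2 list 64.6% was E2-only by the same rule, and 21 of the T-47D peaks overlapped such a region. The 42 shared peaks were set beside the other 390. The element was in 18 of 42 (42.9%) and in 74 of 390 (19.0%), and among the 21 that were E2-only in both lines in 12 (57.1%). GATA words were in 3 of the 42 (7.14%) and in 92 of the 390 (23.6%), and c-JUN of T-47D under E2 overlapped 29 (69.0%) and 83 (21.3%). H3K27me3 under DMSO overlapped 36 of the 42 (85.7%) and 74 of the 390 (19.0%). The shared peaks were not the strongest in T-47D, with a median LSD1 fold enrichment of 6.24 against 7.46, and they had more tags at the summit, a median of 49 against 37.

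The GREB1 and RARA peaks were listed for LSD1 in both lines under E2 alone. At the GREB1 peak, Ishikawa LSD1 had a fold enrichment of 49.1, and at the RARA peak of 25.002, against 7.76 and 7.80 in T-47D. MIDEAS (11.3), MAPKAPK3 (13.4) and CUEDC1 (17.7), which carry a perfect element, were also in the Ishikawa E2 list. Near GRHL2, an epithelial transcription factor, Ishikawa had LSD1 under both treatments, 15.6 under DMSO and 29.4 under E2. Fold enrichments of different libraries depend on depth and antibody yield, and are set side by side here without a comparison. Other Ishikawa lists met the T-47D peaks more under E2 than under DMSO for c-JUN (81 and 20) and RARA (20 and 1), where the Ishikawa lists were also longer under E2, 18311 against 3768 and 2883 against 137 regions.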

How the data were processed

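Peak lists of 45 libraries were used, LSD1 of T-47D being the subject. Per the methods, the authors aligned reads to hg19 with Bowtie 1.1.2 and called peaks in each library, not on pooled libraries, with MACS2 2.1.0.20140616 (versions from the submitters' processing notes). For each peak the authors deposited the position, the summit, the fold enrichment (a ratio of ChIP pileup to background), −log10 p-values and −log10 q-values and a score, and other columns were coordinates. The methods name the default q-value limit of MACS2, but the lowest −log10 p of any list was 10.0 and the lowest −log10 q 4.66, so the lists had met a stricter limit, and list length depends on depth. No read counts were given, and tags at summits were solved from fold enrichment and p-value within 0.01 of −log10 p.

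Overlap meant at least 1 bp. Places came from GENCODE release 44 on GRCh37, read at the summit. Elements and words were searched within 100 bp of the summit. Shares carry exact (Clopper-Pearson) 95% intervals for counting error. RNAPII libraries were compared by an exact permutation test. Other lists were not tested, since each group held 1 library. Named peaks were the 12 with the highest fold enrichment, those with the element at 1 mismatch or fewer (at most 12), those at RNAPII regions gained with E2 (at most 12), those at genes of 5 lists, and the wider DMSO peaks, and sequence was shown for 12. The members and lists were chosen with earlier results of these data known. Scripts in Python 3.11.15 (numpy 2.4.6, pandas 2.3.3, scipy 1.17.1, pysam 0.24.0) were tested on simulated peaks with known overlaps, elements and pileups. Alternatives covered thresholds, width, overlap rule, window, mismatches, annotation, list length and each RNAPII replicate.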

Additional observations from a re-analysis of the deposited data

Results flagged for a closer look

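For 5 targets the number of E2-only T-47D LSD1 peaks overlapped moved in opposite directions with E2 in the 2 cell lines. These differences were not tested, since each count comes from a single library. For c-JUN the number under E2 minus that under DMSO was -125 in T-47D (237 and 112) and 61 in Ishikawa (20 and 81). For RARA it was -33 in T-47D (76 and 43) and 19 in Ishikawa (1 and 20). H3K4me3 gave -10 in T-47D and 10 in Ishikawa, TAF1 gave 7 and -1, and c-MYC gave 2 and -2. For all 5 targets and in both lines, the list with the larger count was also the longer list. The Ishikawa c-JUN and RARA lists were longer under E2 and the T-47D ones shorter. H3K4me3 lists held 30774 regions under DMSO and 29081 under E2 in T-47D, and 29597 and 31901 in Ishikawa. TAF1 lists held 4591 and 5645 in T-47D, and 19349 and 16554 in Ishikawa. Those of c-MYC held 601 and 1822 in T-47D, and 61 and 2 in Ishikawa. The part of list length in these differences was not tested.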

How the results depend on the processing

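Of 77 recomputed values, 53 stayed within the counting interval of the share, within 1.5 times of the number of peaks or, for the RNAPII difference, on the same side of 0, and 24 moved. The RNAPII difference kept its direction under each of its 14 alternatives. With fold enrichment of at least 8 there were 167 E2-only peaks, 4.19% at H3K4me3 and 2.99% at Ishikawa LSD1. The share at H3K4me3 was 0.926% with reciprocal overlap of at least 50% and 3.01% with the summit inside, that at H3K4me1 0.231% and 0.463%, and 0.231% with the H3K4me1 list of E2-treated cells. Reciprocal overlap also gave 33.8% for RNAPII in both E2 libraries and 4.63% for Ishikawa LSD1. The share at start sites was 11.6% within 1000 bp and 2.31% for protein-coding starts. The share with the element was 8.10% at 1 mismatch, 57.6% at 3 and 12.5% within 50 bp of the summit. Ishikawa LSD1 under DMSO overlapped 6.71%, and the Ishikawa list shortened to the T-47D length 1.62%. An alternative chosen after seeing the data kept the 216 peaks with background at or below the median, of which 3.24% were at H3K4me3, 76.4% at RNAPII in both E2 libraries and 1.85% at Ishikawa LSD1. The cause of these moves was not tested, beyond what each setting removes by construction.

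Without either E2 replicate, RNAPII overlap was 89.8% to 91.9%, and leaving out single replicates gave a difference of 28.5 to 37.5 peaks between E2 and DMSO. With every RNAPII list shortened to 21291 regions it was 43 peaks (exact permutation p = 0.667), and the groups, 283 and 356 peaks under DMSO and 342 and 383 under E2, no longer stood apart. Comparing RNAPII height within replicate numbers, chosen after seeing the data, moved the share of peaks with higher RNAPII from 19.1% to 29.9%. The RNAPII replicate numbers are shared only as numbers: with the replicate block the difference was 33 peaks (34 and 32 within numbers 1 and 2, exact sign-flip p = 0.5, the smallest possible), and same-numbered deviations correlated at 0.22 over the peaks. Depth limits every statement on absence from the DMSO list. Leaving out peaks at 3 short lists, also chosen after seeing the data, kept 426 peaks and moved no share beyond its interval.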
